A study of Mus musculus with 7 samples.

Results

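The 9 long non-coding RNA genes described here are Malat1, Neat1 and 7 host genes of small nucleolar RNAs (snoRNAs), namely Gas5, Snhg1, Snhg3, Snhg5, Snhg6, Snhg8 and Snhg12. They were chosen by symbol from a table of read counts for 24015 genes. All 9 were in the table and all 9 had enough counts to be tested, among 11506 genes tested in all. The cells were haematopoietic stem cells (HSCs) from C57BL/6 bone marrow, gated as LSK (lacking lineage markers, with Sca-1 and c-Kit) and within that gate as CD150+ CD48-. RNA with poly(A) was sequenced in bulk from old HSCs (3 libraries) and young HSCs (4 libraries), and old was set against young to see which RNAs differ with the age of the mouse. Ages in months, and whether the libraries are separate mice, are not in the labels; p-values thus refer to spread between libraries, some of it possibly technical. In bulk RNA, fewer cells that express a gene and less RNA per cell cannot be told apart.

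Malat1 and Neat1 are unspliced RNAs that stay in the nucleus. Malat1 gathers in nuclear speckles, the stores of splicing factors, and Neat1 is the RNA scaffold of paraspeckles, bodies that hold back certain RNAs and proteins. The host genes work differently: their introns carry snoRNAs, which guide ribose methylation (box C/D snoRNAs) or pseudouridylation and cleavage (box H/ACA snoRNAs) of ribosomal RNA, while the spliced exons leave as a separate RNA that is often short-lived. Many host transcripts start with a pyrimidine tract, the 5′ TOP, which they share with ribosomal protein messenger RNAs, and Gas5 was named for its accumulation in growth-arrested cells. Poly(A) libraries report the spliced exons and not the snoRNAs.

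Total counts were 27369677 to 32401925 in old libraries and 22203806 to 27146186 in young libraries. The first principal component of log2(CPM + 1) held 27.7% of the variance and set young 1 apart (score 129 against -69.0 to 19.8 in the other libraries), and the second held 22.2% and set young 2 apart (score 108 against -72.3 to 27.5). All 6 markers of HSCs given here (Kit, Ly6a, Slamf1, Procr, Hlf, Mecom) were detected in every library. Their summed level was 1427 to 1843 CPM in old and 578 to 1097 CPM in young libraries, where CPM is the count relative to the TMM-scaled library total. Of the 6, 4 had a positive log2 fold change, old minus young, and 2 a negative one. The 2 were Kit (mean 253 CPM in old and 364 CPM in young libraries) and Hlf (144 CPM in old and 169 CPM in young libraries). Ly6a alone held 991 CPM in old 1. The summed level of 8 progenitor markers was 631 to 887 CPM in old libraries, mostly from Prtn3, and 412 to 562 CPM in young libraries, mostly from Cd34. Of its 4 tested genes only Prtn3 was higher in old HSCs. Cd34 averaged 109 ± 25.03 CPM across old libraries and 308 ± 70.6 CPM across young libraries (adjusted p = 0.0819 in edgeR), and Flt3 was at 0 in old libraries and had 0, 6.26, 36.2 and 9.54 CPM in young 1 to young 4. Cd48, which encodes the marker the gate leaves out, was at 0 in old libraries and had 6.88, 1.87, 24.5 and 16.6 CPM in young 1 to young 4. The summed level of 22 markers of mature marrow cells overlapped between the groups, at 1091 to 1673 CPM in old and 939 to 1732 CPM in young libraries. Most of this sum was Lyz2, with a mean of 1200 CPM across old and 909 CPM across young libraries. Only 5 of the 22 had enough counts to be tested, and 8 (Ltf, Csf1r, Cd3e, Ms4a1 and 4 globin genes) had no count anywhere. Of the tested markers in these lists, Procr (log2 fold change 2.74, adjusted p = 0.00643) and Prtn3 (2.10, adjusted p = 0.0242) rose in old HSCs by edgeR with Benjamini-Hochberg adjustment. The part of these marker levels in the results that follow was not tested.

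Together the 9 RNAs made up 0.309% ± 0.0248 of all counts in old libraries (SD, n = 3) and 0.256% ± 0.0347 in young libraries (SD, n = 4). Malat1 alone held 70.1% ± 3.43 of these counts in old and 71.1% ± 4.82 in young libraries, and ranked between 14 and 33 among all genes by count in every library. None of the 9 passed the threshold of an adjusted p under 0.05 between old and young HSCs (edgeR quasi-likelihood test with Benjamini-Hochberg adjustment over all tested genes), where 0.252% of tested genes did. Restricting the edgeR test to the 4510 genes that averaged 50 CPM or more, with 3 of the 9 among them, or leaving out young 1 and young 2, also called none of the 9, where 2.88% and 0.0582% of genes were called. At an unadjusted p under 0.05 there was 1 of 9, Gas5, in edgeR and in limma-voom, and 2 of 9, Gas5 and Snhg8, in DESeq2, where 9.12% of tested genes reached it in edgeR, 12.4% in limma-voom and 13% in DESeq2. The adjusted test also called 0 of 9 in limma-voom and in DESeq2, where 0.435% and 4.96% of all genes were called. Of the 9, 8 had a positive log2 fold change, old minus young, with a median of 0.33, while 48.5% of all tested genes did, with a median of -0.03. In 3 of the 9, Neat1, Gas5 and Snhg8, every old library lay above every young library, which 7.55% of tested genes showed.

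**Figure D1:**
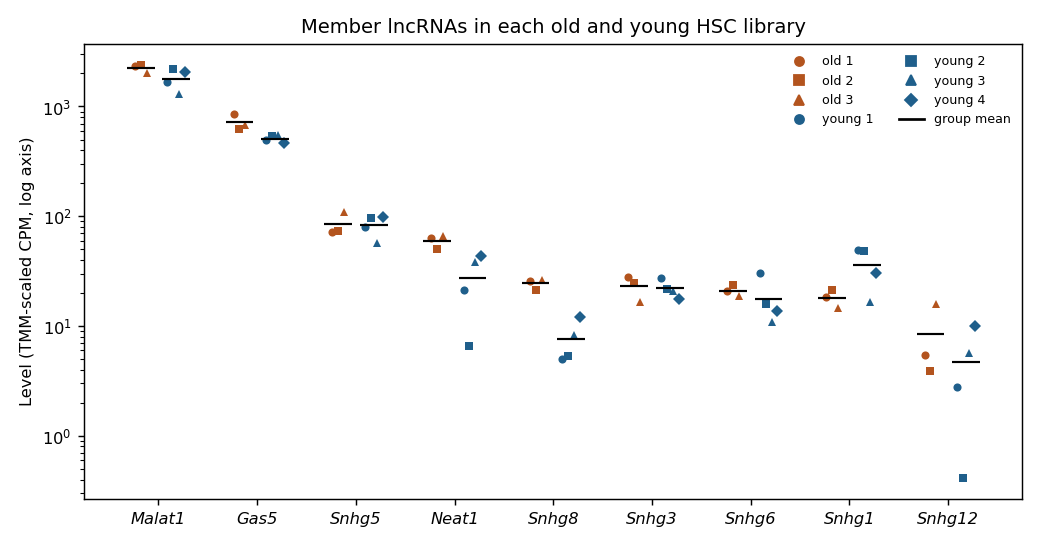
Level of each lncRNA in TMM-scaled CPM on a log axis, 1 point per library, with old libraries left of young libraries and black bars for group means. The old points lie above all young points for Neat1, Gas5 and Snhg8, and the groups overlap for the other 6.

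Malat1 was the most abundant of the 9 by count. It stood at 2341, 2405 and 2006 CPM in old 1 to old 3, against 1666, 2186, 1287 and 2041 CPM in young 1 to young 4. The lowest old library lay below young 2 and young 4, so the groups overlapped. The mean was 2251 ± 214 CPM in old (SD, n = 3) and 1795 ± 404 CPM in young HSCs (SD, n = 4), a log2 fold change of 0.33 ± 0.22 (SE; 95% interval -0.18 to 0.83; adjusted p = 0.809 in edgeR). Its counting error was at most 1.04% of the level (half-width of an exact Poisson interval, which covers counting error only), far below the spread between libraries.

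Malat1 lacks a standard poly(A) tail. RNase P cuts the primary transcript just ahead of a small tRNA-like RNA, mascRNA, and leaves Malat1 with an A-rich end that is encoded in the genome and held in a triple helix by U-rich stretches. That end is shown because the libraries were made from poly(A) RNA. It comes from the GENCODE M21 transcript of 6983 bases on GRCm38, bases 6602 to 6691 (chr19:5795982-5796071, minus strand), with runs of at least 5 A or 5 T in capitals, and the mascRNA that follows (chr19:5795924-5795981, minus strand) is placed by its RefSeq position.
Malat1 end: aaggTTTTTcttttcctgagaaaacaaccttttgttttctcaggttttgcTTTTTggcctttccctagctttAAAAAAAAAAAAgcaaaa
mascRNA: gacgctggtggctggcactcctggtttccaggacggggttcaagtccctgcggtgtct
The A run is 12 bases long and lies 6 bases from the cut, and 2 runs of 5 T precede it. How much of the Malat1 signal was captured through this tract was not tested.

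Neat1 had 63.0, 50.1 and 65.7 CPM in old 1 to old 3, against 21.2, 6.62, 38.7 and 43.9 CPM in young 1 to young 4. All 3 old libraries lay above all 4 young ones, and the young libraries themselves spanned a 6.63-fold range with young 2 lowest. The mean was 59.6 ± 8.32 CPM across old libraries and 27.6 ± 17.02 CPM across young libraries, 2.16-fold, with a log2 fold change of 1.11 ± 0.64 (SE; 95% interval -0.33 to 2.55; adjusted p = 0.714 in edgeR). Without young 1 and young 2 the log2 fold change was 0.53 (adjusted p = 0.626 in edgeR). Neat1 is made as a short polyadenylated form and a long form with an encoded A-rich end from the same start, and the deposited counts do not separate the forms. Frmd8, the nearest protein-coding gene on one side of Neat1, had a log2 fold change of -0.70 (adjusted p = 0.918 in edgeR).

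The host genes are described in descending order of their mean level in old HSCs. Gas5 holds 8 snoRNA genes within its RefSeq span, Snord47 among them. It stood at 862, 625 and 675 CPM in old 1 to old 3, against 493, 536, 545 and 465 CPM in young 1 to young 4. Every old library lay above every young one, with old 1 the highest, and the mean was 720 ± 125 CPM across old libraries and 510 ± 37.4 CPM across young libraries. The ratio of means was 1.41-fold and the log2 fold change 0.50 ± 0.19 (SE; 95% interval 0.07 to 0.93), with an unadjusted p of 0.0269 and an adjusted p of 0.417 in edgeR. DESeq2 gave an adjusted p of 0.0870, and the log2 fold change was 0.35 without old 1. Ribosomal protein genes, whose messenger RNAs carry the same 5′ tract, held 3.21%, 2.47% and 2.19% of counts in old 1 to old 3, against 2.02%, 2.11%, 1.4% and 1.87% in young 1 to young 4; their part in the Gas5 difference was not tested. In RefSeq, Gas5 overlaps Zbtb37 at its start, and the protocol does not mark strand. Zbtb37 had too few counts to be tested.

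Snhg5, whose span holds 2 snoRNA genes and which is also known as mU50HG-b, averaged 85.3 ± 21.1 CPM across old libraries and 83.2 ± 19.4 CPM across young libraries. Its libraries ran from 72.3 to 110 CPM in old and from 56.7 to 99.1 CPM in young HSCs and overlapped throughout (log2 fold change 0.04 ± 0.33; 95% interval -0.70 to 0.78; adjusted p = 0.993 in edgeR). An interval this wide does not show equal levels.

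Snhg8 is the host of Snora24, an H/ACA snoRNA. It had 25.7, 21.4 and 26.4 CPM in old 1 to old 3, against 5.04, 5.34, 8.34 and 12.01 CPM in young 1 to young 4. The old libraries were close to each other and all lay above the young ones, of which young 4 was highest. With means of 24.5 ± 2.72 CPM across old libraries and 7.68 ± 3.25 CPM across young libraries, the ratio of 3.19-fold was the widest among the 9 (log2 fold change 1.67 ± 0.85; 95% interval -0.24 to 3.59; unadjusted p = 0.0801 and adjusted p = 0.634 in edgeR). DESeq2 gave an unadjusted p of 0.00689 and an adjusted p of 0.102. The log2 fold change was 1.27 without young 1 and young 2. The SD pooled within groups was 20.5% of the mean over all 7 libraries for Snhg8. The median was 71.8% for the 3199 other genes at a mean level within 2-fold of its own. All 9 lncRNAs lay below the median at their own level, for instance Malat1 (17.1% against 20.7%) and Snhg3 (21.5% against 60.6%). Taken by group, the SD of Snhg8 was 11.1% of the old mean and 42.3% of the young mean.

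Snhg3 hosts Snora73a and Snora73b, H/ACA snoRNAs that act in the cleavage of pre-ribosomal RNA. Its level was 16.7 to 27.8 CPM in old and 17.8 to 27.6 CPM in young libraries, with means of 23.1 ± 5.75 CPM across old libraries and 22.03 ± 4.11 CPM across young libraries (log2 fold change 0.07 ± 0.67; 95% interval -1.44 to 1.57; adjusted p = 0.994 in edgeR). Snhg6, the host of Snord87, averaged 21.1 ± 2.31 CPM across old libraries and 17.8 ± 8.84 CPM across young libraries (log2 fold change 0.24 ± 0.76; 95% interval -1.47 to 1.96; adjusted p = 0.985 in edgeR). The old libraries of Snhg6 lay within 18.9 to 23.5 CPM, inside the young range of 10.9 to 30.7 CPM. Snhg6 overlaps the meiotic helicase gene Mcmdc2 in RefSeq, which had no count in old libraries and averaged 0.143 CPM in young libraries.

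Snhg1, which holds 8 snoRNA genes with Snord22 among them, was the only one of the 9 with a negative log2 fold change. It had 18.3, 21.5 and 14.6 CPM in old 1 to old 3, against 49.7, 48.5, 16.6 and 30.2 CPM in young 1 to young 4. Young 1 and young 2 were high, and young 3 lay inside the old range. The mean was 18.1 ± 3.43 CPM across old libraries and 36.2 ± 15.9 CPM across young libraries (log2 fold change -1.0 ± 0.66; 95% interval -2.48 to 0.48; adjusted p = 0.791 in edgeR), and the log2 fold change was -0.37 without young 1 and young 2. Slc3a2, a subunit of amino acid transporters that lies 117 bases from Snhg1 in RefSeq, averaged 287 ± 19.3 CPM across old libraries and 248 ± 67.0 CPM across young libraries (log2 fold change 0.21, adjusted p = 0.937 in edgeR). Syncrip encodes an RNA-binding protein and is the nearest protein-coding gene on one side of Snhg5, 38460 bases away. It had a log2 fold change of -0.85 (adjusted p = 0.602 in edgeR).

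Snhg12 holds 4 snoRNA genes (Snora16a, Snora44, Snora61 and Snord99) and was the least abundant of the 9. It had 5.48, 3.90 and 15.8 CPM in old 1 to old 3, against 2.80, 0.411, 5.67 and 10.1 CPM in young 1 to young 4. Old 3 and young 4 were the highest of their groups and young 2 the lowest. The log2 fold change was 0.82 ± 1.42 (SE; 95% interval -2.38 to 4.03; adjusted p = 0.972 in edgeR) and -0.018 without old 3. It was 0.087 without young 1 and young 2. The count of 9 in young 2 gave a counting interval of 0.188 to 0.780 CPM, with a half-width of 72.1% of the level.

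**Figure D2:**
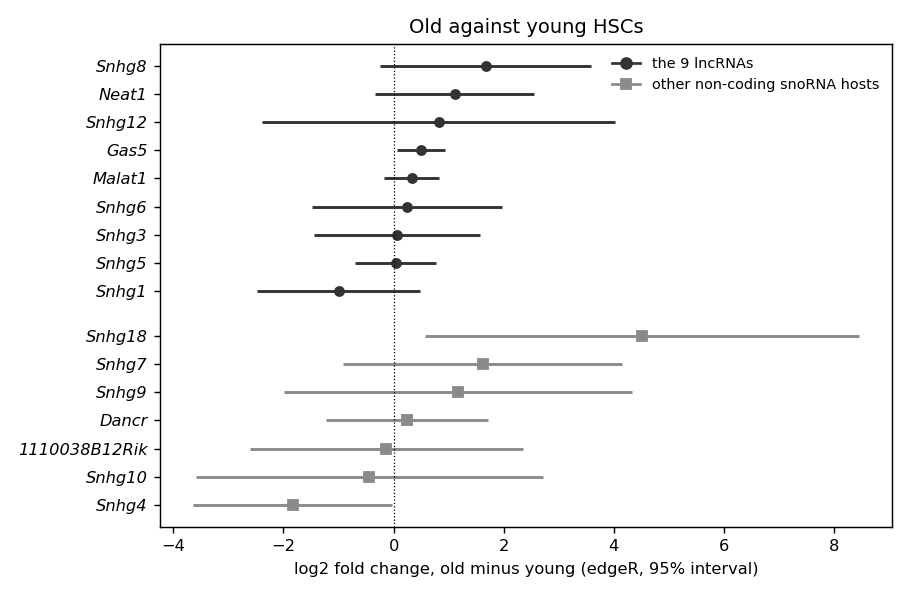
Log2 fold change, old minus young, with 95% intervals from edgeR for the 9 lncRNAs (dark circles) and for 7 other non-coding snoRNA host genes (grey squares). Of the 9, the interval lies wholly above 0 only for Gas5 (0.07 to 0.93), which missed the adjusted threshold.

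Host genes start at promoters that can be compared by sequence. RefSeq promoters on GRCm38.p6 were matched for 7 of the 9 symbols by name, with 2 starts for Gas5; Neat1 and Snhg6 had no entry. The 6 host genes among them are shown from 45 bases before to 25 bases after an annotated start, as the stretch in which the start tract and a TATA element would lie. Capitals mark the letters TATA, which read the same on both strands, where they lie wholly within 45 to 16 bases before the start. Capitals also mark a run of at least 5 C or T that opens with C within 10 bases of the start, on the transcribed strand.
Gas5, second start, chr1:161035121-161035190, plus strand: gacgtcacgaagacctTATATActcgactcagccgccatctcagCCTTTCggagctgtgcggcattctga
Snhg1, chr19:8723442-8723511, plus strand: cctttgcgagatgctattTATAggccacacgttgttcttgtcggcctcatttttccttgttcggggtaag
Snhg3, chr4:132353662-132353731, minus strand: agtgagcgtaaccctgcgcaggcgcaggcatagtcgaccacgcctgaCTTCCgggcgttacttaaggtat
Snhg5, chr9:88522873-88522942, minus strand: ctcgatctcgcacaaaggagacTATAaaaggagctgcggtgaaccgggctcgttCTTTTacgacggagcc
Snhg8, chr3:123508312-123508381, minus strand: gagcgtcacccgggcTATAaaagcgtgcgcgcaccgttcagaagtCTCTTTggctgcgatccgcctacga
Snhg12, chr4:132308633-132308702, plus strand: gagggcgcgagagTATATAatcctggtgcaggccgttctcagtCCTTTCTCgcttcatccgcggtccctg
TATA was present in 5 of the 8 promoters of the 9 genes, those of Gas5 (second start), Snhg1, Snhg5, Snhg8 and Snhg12, where 6.72% of all 32851 promoters and 3.18% of those of tested genes held it. The pyrimidine run was present in 5 of 8 as well, those of Gas5 (second start), Snhg3, Snhg5, Snhg8 and Snhg12, where 29.0% of all promoters and 38 of 76 promoters of ribosomal protein genes held it. Both were present in Gas5, Snhg5, Snhg8 and Snhg12, and in 1.98% of all promoters. Malat1 and the first Gas5 start held neither. These are letter matches at annotated starts and say nothing of a factor or of the start used in HSCs. The genes that held both spanned log2 fold changes of 0.04 (Snhg5), 0.50 (Gas5), 0.82 (Snhg12) and 1.67 (Snhg8).

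Levels can be compared between genes only per length, here as CPM per kilobase of the longest GENCODE M21 transcript without a retained intron; that annotation is later than the mm9 build of the counts, so the lengths are approximate. On this scale Gas5 was highest, at 1083 ± 188 in old and 766 ± 56.2 in young libraries, and its lowest library (699.5) lay above every library of Malat1. Malat1 came next, at 322 ± 30.7 in old and 257 ± 57.8 in young libraries, and its lowest library (184) lay above every library of Snhg5. Snhg5 followed at 85.0 ± 21.1 in old and 82.8 ± 19.4 in young libraries. Below it the order differed between the groups. Old HSCs had Snhg8 (46.4), Snhg3 (39.7), Snhg6 (25.8) and Snhg1 (25.6), and young HSCs had Snhg1 (51.1), Snhg3 (37.9), Snhg6 (21.8) and Snhg8 (14.6). In both groups each of these genes overlapped its neighbour in range, and in young libraries Snhg5 and Snhg1 overlapped too. Within single libraries the order was steadier, since Snhg5 lay above all 4 of them and Snhg3 above Snhg6 in 7 of 7. Snhg8 lay above Snhg1 in 3 of 3 old libraries and in 0 of 4 young libraries. Neat1 stood at 19.8 in old and 9.18 in young libraries if its reads came from a transcript of 3004 bases, and at 2.87 in old and 1.33 in young libraries for the long transcript of 20771 bases. Snhg12 stood at 5.45 in old and 3.09 in young libraries.

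**Figure D3:**
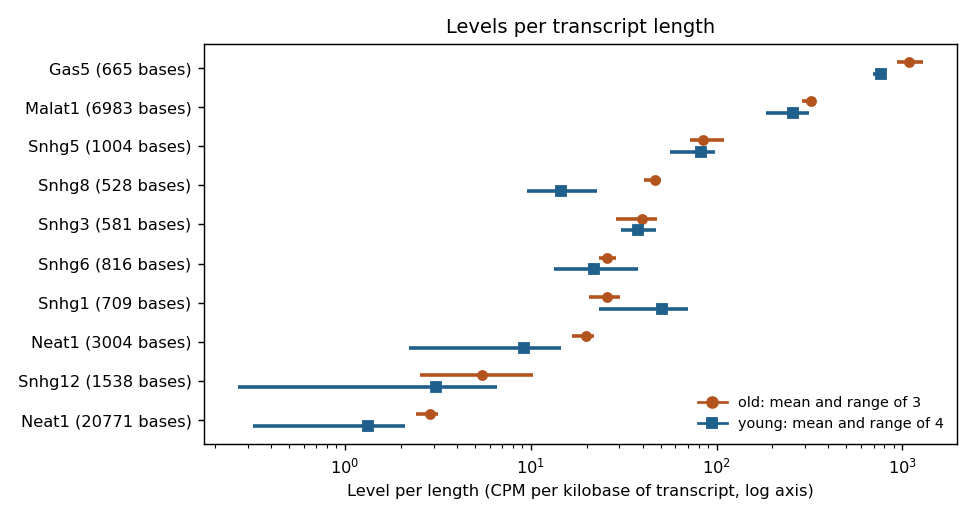
Level per transcript length in CPM per kilobase on a log axis, with the mean and range of the 3 old libraries (upper, orange) and the 4 young libraries (lower, blue) for each gene. Gas5 and Malat1 stand clear of the rest, and Neat1 is drawn for a transcript of 3004 bases and again for 20771 bases.

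Profiles over the 7 libraries fell into different shapes. The distance between 2 profiles was the mean absolute difference of log2(CPM + 1), each centred on its own mean. Gas5 and Snhg3 were the closest pair (0.23), followed by Malat1 and Snhg5 (0.26), while Neat1 and Snhg1 were the farthest apart (1.34). In young 2, Neat1 lay 2.20 and Snhg12 2.03 below their means, and Snhg1 lay 0.90 above its mean. Among tested genes that averaged 50 CPM or more, the profiles nearest to Malat1 were those of Tomm22 (0.09), Bre (0.09) and Gtf2a2 (0.10), and those nearest to Gas5 were Golga7 (0.08), Cyb561d2 (0.09) and the ribosomal protein gene Rplp0 (0.09). Ctsf (0.17), Matk (0.25) and Mycn (0.27) were nearest to Neat1. Ctf1, Selenbp1 and Mllt3, a chromatin reader that maintains HSCs, were nearest to Snhg8 (0.14 each). Smim5 (0.15), Mrpl42 (0.16) and Det1 (0.18) were nearest to Snhg1, Cables2 (0.08), Yaf2 (0.10) and Prps1 (0.10) to Snhg3, and Mpzl1 (0.09), Lsm6 (0.13) and Tmed9 (0.13) to Snhg5. Jmjd6 (0.15), Sod1 (0.16) and Tmed4 (0.16) were nearest to Snhg6, and Pomk (0.25), Hsdl1 (0.31) and Matk (0.32) to Snhg12.

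**Figure D4:**
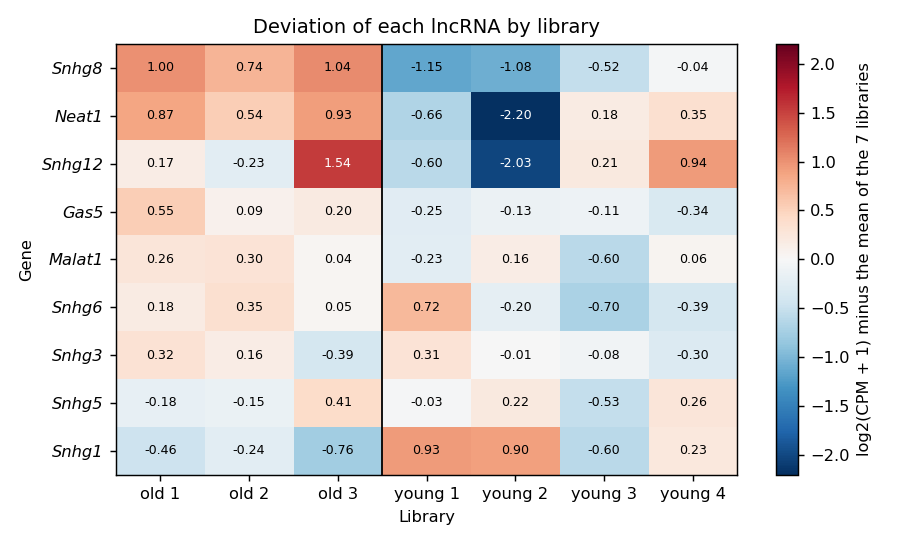
Deviation of log2(CPM + 1) from the mean of the 7 libraries for each lncRNA (rows) in each library (columns, old left of young), with red above and blue below the mean. Young 2 is 2.20 below the mean for Neat1 and 2.03 below for Snhg12, and old 3 is 1.54 above for Snhg12.

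Other non-coding snoRNA hosts went in both directions. Of 7 tested, 0 passed the adjusted test in edgeR, where 0.252% of all genes did. The median log2 fold change of the 7 was 0.24. At an unadjusted p under 0.05, 1 was higher and 1 lower, where 4.62% of tested genes were higher and 4.49% lower. Snhg18 had 19.4, 14.8 and 6.49 CPM in old 1 to old 3, against 0, 1.10, 0.361 and 0.905 CPM in young 1 to young 4. The old libraries all lay above the young ones (log2 fold change 4.51 ± 1.75, adjusted p = 0.432 in edgeR). DESeq2 called Snhg18 higher (adjusted p = 0.0272) and limma-voom did not call it (adjusted p = 0.227). Snhg7 likewise did not overlap, with 12.2, 15.8 and 13.5 CPM in old 1 to old 3, against 3.50, 1.64, 5.82 and 7.10 CPM in young 1 to young 4 (log2 fold change 1.61 ± 1.13, adjusted p = 0.816 in edgeR). Snhg4, by contrast, had 16.8, 6.44 and 6.30 CPM in old 1 to old 3, against 30.8, 63.2, 19.98 and 26.2 CPM in young 1 to young 4, so that every old library lay below every young one (log2 fold change -1.83 ± 0.80, adjusted p = 0.533 in edgeR). Non-overlap with old lower was seen in 5.18% of tested genes.

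Most of the genes for proteins that work with these RNAs had a negative log2 fold change in RNA, and protein was not measured. None of these genes passed the adjusted test in edgeR over all 11506 genes. Of all tested genes, 5927 of 11506 were negative, and 4.49% were lower at an unadjusted p under 0.05. Of 20 tested genes of snoRNA particle and assembly proteins, 15 were negative (median -0.30), and 1 was lower at an unadjusted p under 0.05. That was Ruvbl2, an ATPase that helps to assemble box C/D particles, with 277 ± 18.6 CPM across old libraries and 485 ± 56.8 CPM across young libraries (log2 fold change -0.81 ± 0.19, adjusted p = 0.160 in edgeR); DESeq2 called it lower (adjusted p = 9.73e-05). Nolc1, a nucleolar chaperone of snoRNA particles, averaged 23.6 ± 6.90 CPM across old libraries and 64.1 ± 39.0 CPM across young libraries, and Pih1d1, an assembly factor, 92.7 ± 12.7 CPM across old libraries and 132 ± 25.1 CPM across young libraries. Of 19 genes for paraspeckle proteins, 15 were negative (median -0.22), and 2 were lower at an unadjusted p under 0.05. They were Ewsr1 (log2 fold change -0.88, adjusted p = 0.312 in edgeR) and Nono, which encodes a core paraspeckle protein (-0.65, adjusted p = 0.428 in edgeR). Of 21 genes for nuclear speckle proteins and Malat1 processing factors, 14 were negative (median -0.24). Clk1, a kinase that releases splicing factors from speckles, had 1010, 526 and 772 CPM in old 1 to old 3, against 284, 428, 269 and 303 CPM in young 1 to young 4. The groups did not overlap (log2 fold change 1.26 ± 0.27, adjusted p = 0.138 in edgeR), and DESeq2 called it higher (adjusted p = 6.06e-04). The splicing factor gene Srsf1 had a log2 fold change of -0.76 and Srsf6 one of 0.51 (adjusted p = 0.377 and 0.498 in edgeR).

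Nonsense-mediated decay is a pathway that degrades spliced host RNAs such as Gas5. Of 17 genes for its factors, 13 had a negative log2 fold change (median -0.20). Smg5 had 0, 0.155 and 0.0384 CPM in old 1 to old 3, against 22.6, 13.1, 11.6 and 6.62 CPM in young 1 to young 4. Its old libraries held almost no counts (adjusted p = 0.191 in edgeR), and DESeq2 called it lower (adjusted p = 7.16e-08). Upf1 and Smg9 had adjusted p of 0.842 and 0.884 in edgeR. Of 16 genes for regulators of 5′ TOP transcripts, 11 were negative (median -0.28). Tsc2 had 5.71 ± 4.05 CPM across old libraries and 31.4 ± 19.6 CPM across young libraries (adjusted p = 0.417 in edgeR and 0.0344 in DESeq2). Of 14 protein-coding hosts of snoRNAs other than ribosomal proteins, 10 were negative (median -0.11). The translation factor gene Eif4a2, which had the smallest p of them, was positive, with 517 ± 103 CPM across old libraries and 295 ± 32.5 CPM across young libraries (log2 fold change 0.81 ± 0.21, adjusted p = 0.191 in edgeR; 0.00800 in DESeq2). Ncl, which encodes nucleolin, and Dkc1, the pseudouridine synthase of H/ACA particles, had log2 fold changes of -0.49 and -0.35 (adjusted p = 0.5675 and 0.678 in edgeR). Of 15 other characterised lncRNAs, 7 were positive and 8 negative (median -0.09). Tug1 was lowest in p, with 191, 266 and 164 CPM in old 1 to old 3, against 1047, 588, 630 and 246 CPM in young 1 to young 4 (log2 fold change -1.60 ± 0.43, adjusted p = 0.207 in edgeR; 0.00528 in DESeq2). Only young 4 lay inside the old range. Xist, the RNA that silences an X chromosome, averaged 65.7 ± 35.8 CPM across old libraries and 111 ± 47.7 CPM across young libraries, and 2900097C17Rik, the older symbol of the cytoplasmic lncRNA Norad, 15.2 ± 0.787 CPM across old libraries and 26.6 ± 15.4 CPM across young libraries (adjusted p = 0.760 and 0.915 in edgeR). With all 11506 genes tested, no list in this paragraph or the one before had a gene past the adjusted threshold in edgeR, at a background of 0.252%. DESeq2 called 4.96% of all genes and limma-voom 0.435%. In limma-voom the adjusted p was 0.0654 for Clk1, 0.102 for Ruvbl2, 0.127 for Smg5, 0.141 for Eif4a2 and 0.224 for Tug1, so none of these was called there. Restricted to genes that averaged 50 CPM or more, where 2.88% were called, edgeR called Clk1 higher (adjusted p = 0.0259) and Ruvbl2 (0.0479) and Tug1 (0.0485) lower in old HSCs.

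**Figure D5:**
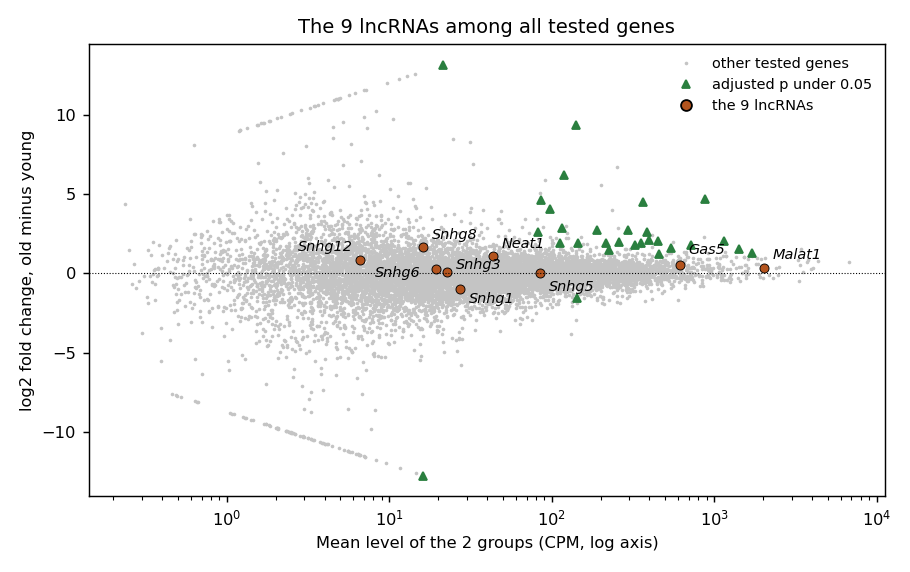
Log2 fold change, old minus young, against the mean level of both groups in CPM (log axis) for all 11506 tested genes, with the 29 genes past the adjusted threshold as green triangles and the 9 lncRNAs as labelled orange circles. The 9 lie between -1.0 (Snhg1) and 1.67 (Snhg8), and none is a green triangle.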

How the data were processed

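Per the labels' protocols, Smart-seq+ cDNA from poly(A) RNA was made into Nextera XT libraries, a kit that leaves strand unmarked. Trimmomatic, FastQC, STAR, featureCounts and the mm9 build are named in the submitters' processing notes; their versions, settings and the annotation were not given in the sources used here. Raw counts per gene symbol were deposited by the authors, 1 column per library. Amplification copies are included, and ambiguous reads of overlapping genes may be lost.

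The counts were tested with edgeR 4.0.16 under R 4.3.3 (filterByExpr with minimum count 10 and minimum total 15, TMM, quasi-likelihood F test, 2-sided, group as the only term, Benjamini-Hochberg over all tested genes), and with limma 3.58.1 (voom) and DESeq2 1.42.0 as alternatives. SE is the absolute log2 fold change over the square root of F. No 2 libraries agreed within sampling noise (chi-square per degree of freedom of 186 or more). The procedure was tested on simulated counts. Members and lists were chosen with earlier results of these data known. Named genes are the members, the 3 smallest p of each list, the 3 nearest profiles of each member, and neighbouring protein-coding genes in RefSeq (GRCm38.p6); marker genes served as checks. Old gene symbols such as Gnb2l1 and Nhp2l1 stand for newer ones in the lists. Coordinates are those of the reference, not of mm9. Some genes of the lists and neighbours are not reported here.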

Additional observations from a re-analysis of the deposited data

Results flagged for a closer look

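Among 48 genes examined (the 9 lncRNAs, the other non-coding hosts, the smallest p of each list and the neighbouring genes), 3 had 1 young library far from the other 3 young libraries. None was among the 9 lncRNAs, and chance gives about 1 such case in 20 groups. Snhg10, a non-coding host, had 15.6 CPM in young 2, while its other young values were 3.59 to 4.84 CPM. Cnbp, a nucleic acid-binding protein that acts on 5′ TOP transcripts, had 4440.0 CPM in young 2 against 3270.0 to 3410.0 CPM. Zfp949, the nearest protein-coding gene on one side of Snhg5, had 29.3 CPM in young 4 against 0.65 to 4.56 CPM. Groups of 3 old libraries were not examined in this way.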

How the results depend on the processing

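None of the 9 lncRNAs passed the adjusted threshold under any of the 20 alternatives in which it could be tested, which does not show that the levels were equal. The number of genes called over the whole table moved from 29 to 50 with limma-voom, 586 with DESeq2, 16 with library size alone and 2 to 18 without 1 library. It was 130 among genes that averaged 50 CPM or more and 7 without young 1 and young 2, both chosen after seeing the data. With the replicate number as a block, 0 genes were called in edgeR (694 at an unadjusted p under 0.05). The labels do not say that numbers pair libraries, and deviations of same-numbered libraries had correlations of 0.0191, -0.0990 and 0.0158. Directions held in 164 of 173 values for the 9 lncRNAs. The others were those of Snhg3 (-0.023 with library size alone, -0.045 with the block, -0.089 to 0.26 without 1 library), Snhg5 (-0.052 with library size alone, -0.024 among genes of 50 CPM or more, -0.18 to 0.14 without 1 library) and Snhg12 (-0.018 to 1.5 without 1 library); the cause was not tested. Of neighbouring genes, Phactr4 was at 0.35 and Rab42 at 0.085 with the block, and they ranged from -0.89 to 0.23 and from -0.97 to 0.42 without 1 library. Library size alone set the median of all genes to -0.13, against -0.03 with TMM. Low counts limit Snhg12 most.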
